A study of Mus musculus with 2 samples.

Results

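The miR-101 genes of the mouse heart are the subject here. They are Mir101a, Mir101b and Mir101c, 3 of the 2202 miRNA genes in the deposited count files, and were taken by their GENCODE M21 symbols. MicroRNAs were sequenced from RNA of under 30 nucleotides, taken from hearts of 25-day-old male B6CASTF1/J mice, the F1 animals of a cross between C57BL/6J and CAST. A description in the labels gives the age in months, while the age and source labels give days, which were used. The 2 libraries form 1 group with no treatment, mutation or control, and are numbered as biological replicates 1 and 2. The labels number the animals separately but list both under a single donor identifier, so the spread between the libraries may be partly or wholly technical. Replicate 1 held 4930853 reads assigned to a miRNA gene and replicate 2 held 5229819.

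A microRNA is cut from a hairpin transcript, and bases 2 to 8 of the mature strand, the seed, pair with its target messages. Mature miR-101 comes mainly from the 3′ arm of its hairpin. It is best known for repressing EZH2, the histone methyltransferase of Polycomb repressive complex 2, in human tumour cells, and in rats it was reported to restrain cardiac fibroblasts after infarction through Fos.

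The mature 3′ sequences are shown first because their near identity sets what the counts can tell apart. They come from RefSeq (build GRCm38.p6, the assembly that mm10 names), are written 5′ to 3′, and carry the seed in capitals.
miR-101a-3p: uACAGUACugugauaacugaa
miR-101b-3p: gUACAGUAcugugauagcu
miR-101c: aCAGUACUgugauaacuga

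All 3 sequences hold the same core, but their annotated 5′ ends differ. That of miR-101b-3p lies 1 base before that of miR-101a-3p, and that of miR-101c lies 1 base after it. The seed of miR-101a-3p reads ACAGUAC, that of miR-101b-3p reads UACAGUA and that of miR-101c reads CAGUACU. None of these 3 seeds occurs at bases 2 to 8 of another mature miRNA in the RefSeq table. Along the 21 bases of miR-101a-3p, counted from 1 at its 5′ end, the Mir101b hairpin differed at 1 base, A16G. The Mir101c hairpin differed at its 2 end bases, U1C and A21U.

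The hairpins are shown with the annotated mature sequences in capitals. These are GENCODE M21 transcripts, written with U in place of T.
Mir101a: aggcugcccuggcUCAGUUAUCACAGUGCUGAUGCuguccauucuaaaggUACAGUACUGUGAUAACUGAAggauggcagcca
Mir101b: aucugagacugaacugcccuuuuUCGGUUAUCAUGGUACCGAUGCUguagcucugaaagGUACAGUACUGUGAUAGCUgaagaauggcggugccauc
Mir101c: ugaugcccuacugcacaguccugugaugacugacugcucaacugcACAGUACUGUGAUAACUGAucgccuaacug

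Mir101a and Mir101b each have an annotated strand on both arms, while Mir101c has 1 annotated mature sequence. The longest run shared by the Mir101a and Mir101b hairpins was 20 bases, that of Mir101a and Mir101c was 19, and that of Mir101b and Mir101c was 14. Folded with RNAfold, the Mir101a hairpin had a minimum free energy of -47 kcal/mol over 83 bases, with 20 of the 21 bases of its 3′ strand paired. The Mir101b hairpin had -39.6 kcal/mol over 97 bases, with 18 of the 19 bases of its 3′ strand paired. The Mir101c hairpin had -16.1 kcal/mol over 75 bases, with 11 of its 19 mature bases paired. Per base these energies were -0.57, -0.41 and -0.21 kcal/mol, against a median of -0.44 over detected miRNA genes. Of the 2202 hairpins, 122 had a lower energy per base than Mir101a, 806 than Mir101b and 2121 than Mir101c.

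Mir101a and Mir101b lie in similar gene neighbourhoods, and Mir101c does not. Mir101a (ENSMUSG00000065451.1) lies on the minus strand at chr4:101346945-101347027 of mm10, within an exon of 1 of the 2 transcripts of the long non-coding RNA gene E130102H24Rik. Its nearest protein-coding genes are Ak4, 72.3 kb away, and Jak1, 81.7 kb away. Mir101b (ENSMUSG00000065556.1) lies on the plus strand at chr19:29135279-29135375, within an intron of Rcl1, a gene of ribosomal RNA processing. On its sides lie Ak3, 87.3 kb away, and Jak2, 116 kb away, so both genes sit between a gene of a Janus kinase, which signals from cytokine receptors, and one of an adenylate kinase. Mir101c (ENSMUSG00000106183.1) lies on the minus strand at chr9:3038669-3038743 and overlaps no annotated gene. Its flanking protein-coding genes are Gm10715, 0.353 kb away, and Alkbh8, 296 kb away. None of the 3 miR-101 genes overlaps another miRNA gene. The miRNA genes nearest to each, Gm23366, Gm24108 and Gm22195, lie 1689, 1126 and 1232 kb away and had 0 counts in both libraries.

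The shared bases decide which reads can be told apart by exact matching. The whole 19 bases of miR-101c lie within miR-101a-3p, so an exact read of annotated miR-101c matches both hairpins. Per the row names of the files, a read that fits more than 1 locus is counted for no gene, and such reads made up 41.6% of reads in replicate 1 and 37.4% in replicate 2. For reads that start at the annotated 5′ end, 15 bases of miR-101a-3p also occur in the Mir101b hairpin, while 16 or more occur in no other listed hairpin. For miR-101b-3p, 15 and 16 bases from the 5′ end also occur in the Mir101a hairpin, and 17 or more do not. Of the 3 windows of 19 bases within miR-101a-3p, 1 is found in the Mir101c hairpin. No window of 15 or more bases from the 5′ strands of Mir101a or Mir101b occurs in another listed hairpin. The number of mismatches allowed in the alignment is not given in the sources used here, and sequence outside annotated miRNA genes was not searched. Reads of CAST alleles were placed on the C57BL/6J sequence, and differences between the strains at these loci were not analysed here.

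**Figure D1:**
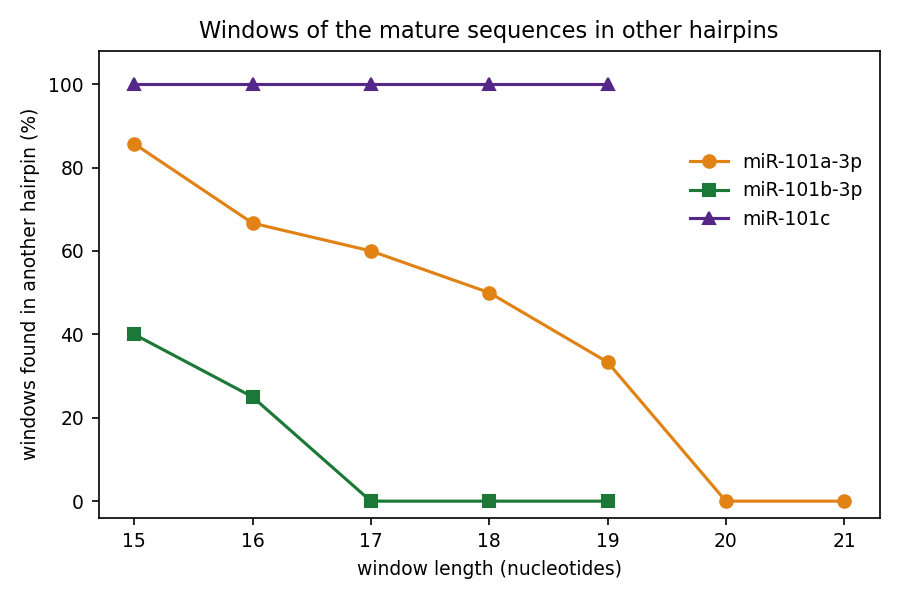
Share of windows within each mature sequence that occur in the hairpin of another listed miRNA gene (vertical axis, percent) by window length (horizontal axis, nucleotides). All windows of miR-101c occur in another hairpin at every length, the share for miR-101b-3p is 0 from 17 nucleotides and that for miR-101a-3p from 20.

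Mir101b had the most assigned counts of the 3 genes in both libraries, Mir101a was second, and Mir101c had no counts. Levels are in CPM, the gene's share of all assigned counts multiplied by 1000000. A read stands for a mature strand or part of one, so levels are not divided by length, and adapter ligation, which favours some sequences, enters any ratio between genes. Reads that fit several loci, which are counted for no gene, enter it too. At 17 and 19 bases, 60% and 33.3% of windows within miR-101a-3p occur in another hairpin, against 0% for miR-101b-3p. The effect of such reads on the order of the genes was not tested. A count belongs to a whole hairpin, so the arms cannot be told apart. In bulk tissue, fewer cells of a type and less RNA per cell cannot be told apart either.

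Mir101b had 900 counts in replicate 1 and 1132 in replicate 2. These are levels of 183 CPM (exact Poisson 95% interval 171 to 195) and 216 CPM (204 to 229), with a mean of 199 ± 24.0 CPM (SD, n = 2). The intervals cover counting error only and do not overlap, and replicate 2 was higher. Mir101a had 458 counts in replicate 1 and 178 in replicate 2, or 92.9 CPM (84.6 to 102 CPM) and 34.0 CPM (29.2 to 39.4 CPM). Its mean was 63.5 ± 41.6 CPM (SD, n = 2), and replicate 1 was the higher library. Both values of Mir101a lay below both values of Mir101b.

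Mir101c had 0 counts in both libraries. At a limit of 3 counts, this allows levels of at most 0.608 CPM (replicate 1) and 0.574 CPM (replicate 2). Since exact reads of its mature sequence also match Mir101a, these limits hold for reads placed at Mir101c alone. Of the 2202 listed genes, 1448 were at 0 in both libraries. The column for the opposite strand held 0 counts for all 3 miR-101 genes in both libraries.

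**Figure D2:**
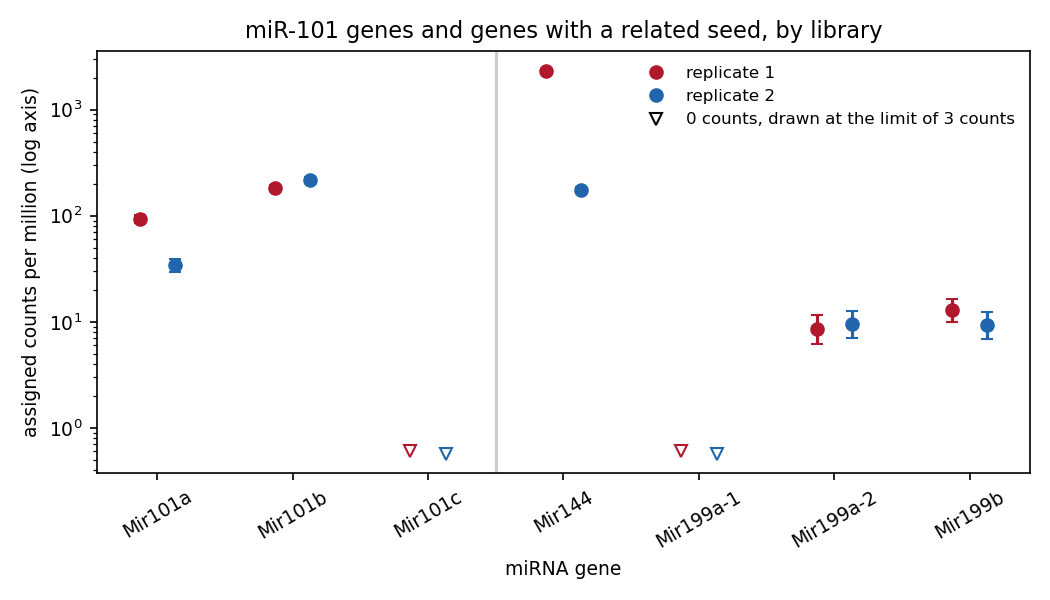
Level of each miR-101 gene, and of the other genes whose mature sequence holds ACAGUA at its start, in CPM on a log axis. Counts of the Mir199 genes leave out exact reads of the 3′ strand that they share. Points are single libraries with exact Poisson 95% intervals, and open triangles mark 0 counts, drawn at the limit of 3 counts; Mir101b at 183 and 216 CPM lies above Mir101a at 92.9 and 34.0 CPM.

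Among the 356 genes with at least 10 counts in both libraries, called detected, Mir101b ranked 119 and Mir101a 173 by mean level. By mean level, the median detected gene was at 60.3 CPM, so Mir101a lay close to it and 66.6% of detected genes lay below Mir101b. The genes closest in level to Mir101b, by the larger of the log2 CPM differences in the 2 libraries, were Mir152 (0.09), Mir208b (0.17) and Mir487b (0.22). Mir208b, a miRNA of a cardiac myosin gene, was at 191 CPM in replicate 1 and 192 CPM in replicate 2. Its mean differs from that of Mir101b by less than the SD of Mir101b. Mir152 was at 188 ± 20.6 CPM and Mir487b at 196 ± 55.4 CPM (SD, n = 2), also within that spread. The genes closest to Mir101a were Mir708 (0.14), Mir138-2 (0.16) and Mir92b (0.23). Their levels were 67.2 ± 49.8, 57.8 ± 35.8 and 61.5 ± 30.4 CPM (SD, n = 2), and none differs from Mir101a by more than its spread. This likeness follows from how the genes were picked, was taken over 2 libraries and is a description.

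**Figure D3:**
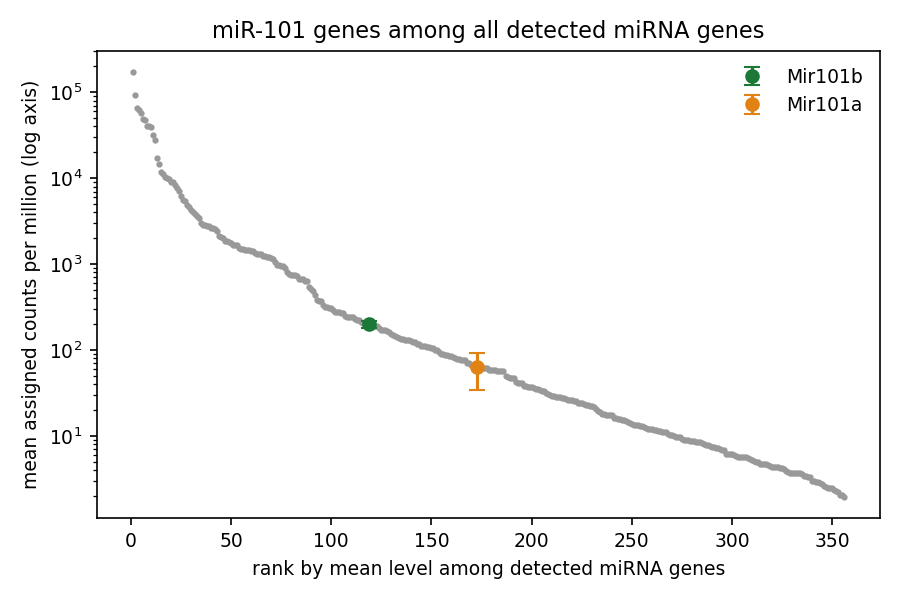
Mean level of the 356 detected miRNA genes in CPM (log axis) by rank. Coloured points are Mir101b at rank 119 and Mir101a at rank 173, with bars from the lower to the higher library.

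Between the libraries, Mir101a was higher and Mir101b lower in replicate 1. For Mir101a, the level in replicate 1 was 2.73 times that in replicate 2 (exact 95% interval 2.29 to 3.26), a log2 ratio of 1.45. For Mir101b, the level in replicate 1 was 0.843 times that in replicate 2 (0.772 to 0.921), a log2 ratio of -0.25. By the exact conditional binomial test, two-sided and with Benjamini-Hochberg adjustment over the 356 detected genes, both differed between the libraries beyond counting error (adjusted p = 1.43e-32 for Mir101a and 0.000274 for Mir101b). In that test 63.5% of detected genes were called, 30.6% higher and 32.9% lower in replicate 1, so a call alone does not set a gene apart. The balance of directions turned with scaling: 115 genes were higher and 106 lower in replicate 1 with TMM, and 90 were higher and 131 lower with DESeq2 size factors. The test compares 2 libraries and has no replicate of either.

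The size of the ratio differed between the genes. The SD of the log2 ratio over detected genes was 0.86. An absolute log2 ratio as large as that of Mir101a was seen in 23 of the 356 detected genes (6.46%), Mir101a included. One as large as that of Mir101b was seen in 241 genes (67.7%), Mir101b included, and its ratio lay below the median absolute log2 ratio of 0.45.

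**Figure D4:**
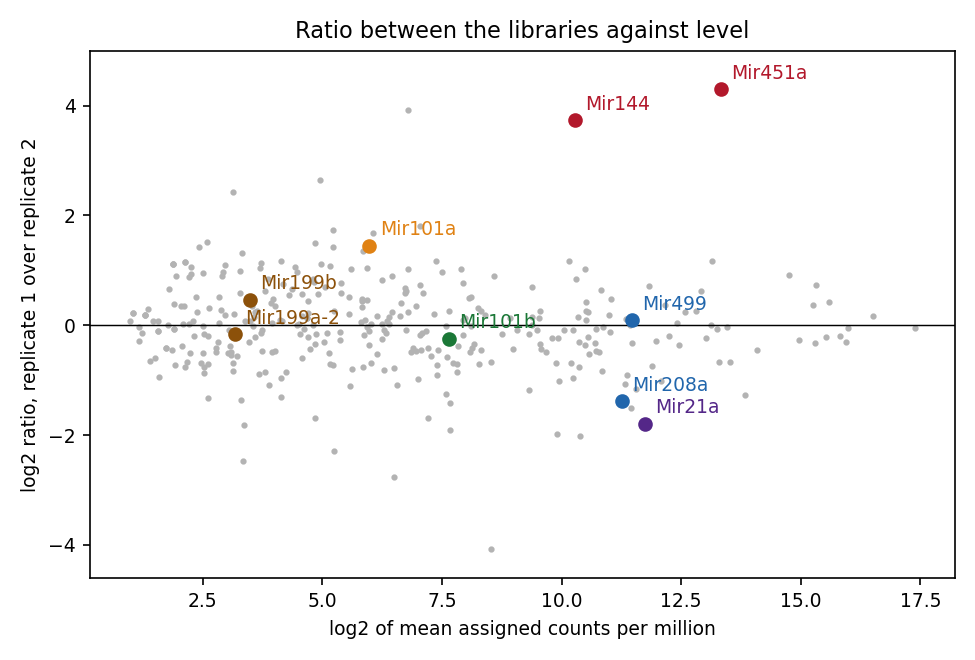
Log2 ratio of replicate 1 over replicate 2 (vertical axis) against log2 mean CPM (horizontal axis) for the 356 detected genes. Mir101a at 1.45 lies above most genes of its level, Mir101b at -0.25 lies near 0, and the red cell genes Mir451a and Mir144 lie at the top.

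Summed over the family, the libraries were closer than for Mir101a alone. The genes together had 1358 counts in replicate 1 and 1310 in replicate 2, or 275 CPM (261 to 290) and 250 CPM (237 to 264). The mean was 263 ± 17.6 CPM (SD, n = 2), and the level in replicate 1 was 1.10 times that in replicate 2 (exact 95% interval 1.02 to 1.19). The split inside this sum differed. Mir101a made up 33.7% of the family's counts in replicate 1 (95% interval 31.2 to 36.3%, exact by Clopper-Pearson) and 13.6% in replicate 2 (95% interval 11.8 to 15.6%). Mir101b counts were 1.97 times Mir101a counts in replicate 1 (1.75 to 2.20) and 6.36 times in replicate 2 (5.43 to 7.49). These intervals do not overlap between the libraries and cover counting error only. Read ends and lengths are not in the count files, so their part in the split was not tested.

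**Figure D5:**
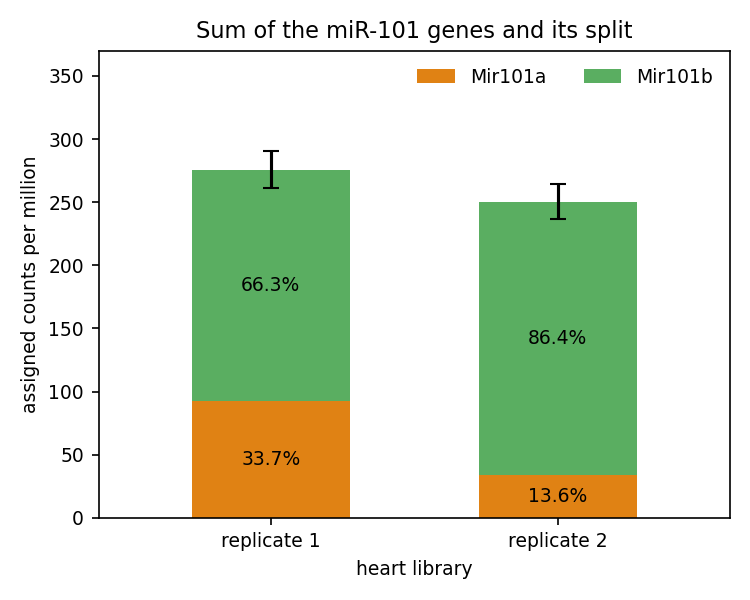
Sum of Mir101a and Mir101b in each library, in CPM from 0, with the exact Poisson 95% interval of the sum as a bar. The sums are 275 and 250 CPM, while Mir101a takes 33.7% in replicate 1 and 13.6% in replicate 2.

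Other miRNAs, encoded by 4 genes, begin with part of the miR-101 seed. The counts of 3 of these, the Mir199 genes, lay below those of Mir101a in both libraries. Those counts leave out exact reads of the 3′ strand that the 3 genes share. The letters ACAGUA were searched within bases 1 to 8 of the mature sequences, on the strand as written. They were found in 6 of 1679 mature names (0.357%), from 7 genes, the 3 miR-101 genes and 4 others. The other sequences, again with the seed in capitals, show where the likeness ends.
miR-144-3p: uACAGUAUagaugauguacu
miR-199a-3p: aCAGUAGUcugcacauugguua

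miR-144-3p has ACAGUA at the same place as miR-101a-3p and differs in the last base of the seed. miR-199a-3p, whose sequence miR-199b-3p shares, starts 1 base later in these letters. Mir144, a red blood cell miRNA, had 11445 counts in replicate 1 and 914 in replicate 2, levels of 2321 and 175 CPM. Mir144 was thus above both miR-101 genes in replicate 1, while in replicate 2 it lay between Mir101a and Mir101b. Mir199a-2 had 42 counts in replicate 1 and 50 in replicate 2, Mir199b had 64 and 49, and Mir199a-1 had 0 in both. The 3 Mir199 genes, known from fibroblasts, share a run of 20 bases with a miRNA gene elsewhere, so their counts miss the reads that fit both. All 22 bases of the 3′ strand shown are the same in the 3 genes. An exact read of that whole strand is counted for no gene, so these counts do not give its level. Of the 3 detected relatives, 1 was called, against 63.5% of all detected genes. This was Mir144, which was higher in replicate 1, at a log2 ratio of 3.73.

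Genes listed as markers of cell types also differed between the libraries, and their part in the ratio of Mir101a was not tested. Over all detected genes, 63.5% were called, 30.6% higher and 32.9% lower in replicate 1, so these calls alone do not set the cell type genes apart. Both red blood cell genes, Mir451a and Mir144, were higher in replicate 1, with a summed level of 21812 CPM in replicate 1 and 1161 CPM in replicate 2. Mir486, also known from red blood cells but outside that list and named after its values were seen, was lower in replicate 1, at 731 CPM against 1173 CPM in replicate 2. With Mir451a and Mir144 left out of the totals, the log2 ratio was 1.48 for Mir101a and -0.22 for Mir101b. The 4 listed genes of fibroblasts and smooth muscle, Mir21a, Mir143, Mir145a and Mir214, were lower in replicate 1, as were 32.9% of all detected genes, with sums of 33433 and 45962 CPM. Mir199a-2 and Mir199b, described above and not on that list, were not called. Of the 3 heart muscle genes, Mir499 was higher in replicate 1 (not called with DESeq2 scaling), Mir208a was lower and Mir208b was not called, with sums of 4486 and 6512 CPM. Mir126a of endothelium was lower in replicate 1, at 56392 CPM against 69422 CPM. In the unstranded column, where reads shared with the overlapping Mir126b are ambiguous, it had 13 and 17 counts and was not called, at a log2 ratio of -0.29 against -0.30. Mir451a, which overlaps Mir451b, and Mir142, which overlaps Mir142b, had 0 counts in both libraries in that column, so their calls could not be repeated there. Of the 4 leukocyte genes, Mir142 was higher, Mir150 and Mir223 were lower and Mir155 was not called (higher with TMM and lower with DESeq2 scaling), with sums of 4788 and 5126 CPM.

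Other miRNAs reported to target Ezh2 moved in both directions. Of the 7 listed, 6 were detected and all 6 were called, 3 higher and 3 lower in replicate 1, against 30.6% higher and 32.9% lower over all detected genes, with a median log2 ratio of 0.10 against -0.02 over all detected genes. Mir26b had the most assigned counts of the 7, at 36056 CPM in replicate 1 against 19091 CPM in replicate 2, far above Mir101a and Mir101b. Mir138-1 (114 and 61.6 CPM) and Mir138-2 (83.1 and 32.5 CPM) were also higher in replicate 1. Mir26a-1 (23.3 and 159 CPM), Mir26a-2 (49.5 and 80.1 CPM) and Mir214 (1868 and 4173 CPM) were lower there. Mir214 is also on the list of fibroblast and smooth muscle genes. Mir217 had 3 and 20 counts and was not tested. Mir26a-1, Mir26a-2, Mir138-1 and Mir138-2 share a run of 20 bases with another miRNA gene, so their counts are uncertain and miss the reads that fit both. The place of Mir26b above them, and the split into 3 higher and 3 lower, hold for the remaining reads only.

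The miRNAs known to restrain cardiac fibrosis were lower in replicate 1 where they were called. Of the 8 listed, 6 were detected, of which 5 were lower in replicate 1 and Mir29b-2 was not called, against 32.9% lower over all detected genes, with a median log2 ratio of -0.41 against -0.02 over all detected genes. Mir29a, which represses collagen genes, was at 2530 CPM in replicate 1 and 3174 CPM in replicate 2. Mir30c-2, reported to repress connective tissue growth factor, was at 666 and 841 CPM. Both were above Mir101b in each library, and the ratio of Mir101b has the same sign as theirs while that of Mir101a has the opposite sign. Mir133a-1 (3 and 30 counts) and Mir133a-2 (6 and 7 counts) were not tested. Each of the 8 genes except Mir29a shares such a run, so its counts miss the reads that fit more than 1 locus. Their levels and ratios hold for the remaining reads only. Low counts, as for Mir133a-1 and Mir133a-2, therefore do not show that the miRNA is scarce.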

How the data were processed

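Per the text deposited with the files, reads were placed on mm10 with the annotation GENCODE M21. The deposited values are whole-number counts per miRNA gene in 3 columns (unstranded, gene strand, opposite strand). No aligner or counter is named in these sources. The gene-strand column was used, and the 4 entries for reads not assigned to a gene were left out of totals and tests. 1 count was 0.203 CPM in replicate 1 and 0.191 CPM in replicate 2. All 2202 identifiers matched GENCODE M21, and all 3 members matched RefSeq.

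With 1 group, edgeR's quasi-likelihood test has no contrast. The libraries were compared by exact conditional binomial tests (SciPy 1.17.1). In counts of 356 genes simulated for this comparison with counting error only, 174 of 200 genes changed 2-fold and 3 of 156 unchanged genes were called. Log2 ratios used a pseudocount of 0.5, and the threshold was an adjusted p of 0.05. Scaling by edgeR 4.0.16 (TMM) and DESeq2 1.42.0 were alternatives. Hairpins were folded with RNAfold 2.7.2.

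Members and lists were chosen with earlier results of these data known. Named are the members, genes with ACAGUA near a mature 5′ end, the 3 closest in level, nearest miRNA genes and listed genes.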

Additional observations from a re-analysis of the deposited data

How the results depend on the processing

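No paired analysis was possible because there is 1 group. The directions and calls of Mir101a and Mir101b between the libraries held under the unstranded column, TMM and DESeq2 scaling, a pseudocount of 1, no filter, and totals without Mir451a and Mir144, the last chosen after seeing the data. Log2 ratios lay between 1.36 and 1.49 for Mir101a and between -0.33 and -0.20 for Mir101b. Some of these settings could change little. Both genes had the same counts in the unstranded column, so only the totals differed there. The pseudocount does not enter the test, so it could not change a call. Without the filter, only the adjustment of the p-values differed. Mean levels of Mir101a and Mir101b were 87.3 and 275 CPM with the smaller total of the unstranded column, and 23.5 and 73.5 CPM when scaled to all reads. With replicate 1 or 2 left out, Mir101a was at 34.0 or 92.9 CPM, Mir101b at 216 or 183 CPM, Mir101c at 0 or 0 CPM, and Mir101b over Mir101a at 6.36 or 1.97. Detected genes numbered 594 with a minimum of 1 count and 222 with 100. Mir101c had no counts to compare. With scaling by DESeq2, Mir499 was not called; Mir155 was called higher in replicate 1 with TMM and lower with DESeq2.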
